A study of Mus musculus with 24 samples.

Results

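Perigonadal fat of male mice lies against the epididymis and the ducts that lead to it, and 7 of the 12 male libraries of this series carried transcripts of a ciliated duct epithelium while 5 did not. The sets were chosen by the measured level of 1 gene, Foxj1, the master transcription factor of motile cilia: above 10 CPM (a gene's count scaled to the total count of its library) or at or below 10 CPM. The series holds 24 RNA sequencing libraries of whole visceral/perigonadal adipose tissue from mice aged 27 to 33 weeks, 4 in each of 6 groups: males and females of the genotypes Foxp3cre (control), PpargFoxp3cre (Pparg knockout) and TbetFoxp3cre (Tbet knockout). Cre is driven by Foxp3 in all groups, controls included, so each deletion is limited to Foxp3-expressing cells, which are regulatory T cells, and levels in whole fat do not check the genotype. Replicates 1 and 3 belong to batch 1 and replicates 2 and 4 to batch 2, as the titles name them. In each group the titles also give replicates 1 and 2 the number 1, and replicates 3 and 4 the number 2. The labels do not say whether each library is its own animal. P-values here therefore cover only how libraries of a group vary, which may be technical.

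Efferent ducts carry sperm from the testis to the epididymis. Their lining mixes cells with motile cilia, which stir the fluid, and absorptive cells, which take up most of it through transporters and endocytic receptors. The epididymal duct that follows has few motile ciliated cells and secretes proteins such as those of the Crisp, Spink and Adam families onto sperm. The oviduct, its female counterpart, is also lined by ciliated cells, next to secretory cells that make the glycoprotein Ovgp1.

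Foxj1 (chromosome 11, 116330704 to 116335499, GRCm38) divided the male libraries with a wide gap. It stood at 93.5 CPM in control 2, 41.6 in control 4, 28 in Pparg knockout 1, 115 in Pparg knockout 4, 17.4 in Tbet knockout 1, 70.5 in Tbet knockout 2 and 46.8 in Tbet knockout 4. It stood at 0.614 CPM in control 1, 0.0824 in control 3, 0.117 in Pparg knockout 2, 0.405 in Pparg knockout 3 and 0 in Tbet knockout 3. The values nearest to the threshold were thus 17.4 CPM inside and 0.614 CPM outside, and no library lay between 5 and 10 CPM. The Foxj1-high libraries were 2 of 4 controls, 2 of 4 Pparg knockouts and 3 of 4 Tbet knockouts, and 2 of 6 libraries of batch 1 against 5 of 6 of batch 2. Every genotype therefore held libraries of each kind, but the Foxj1-low set held 1 library of batch 2, Pparg knockout 2. Male libraries held from 12551619 to 27520628 counts, with a median of 20438668 in the 7 Foxj1-high and 24285013 in the 5 Foxj1-low libraries.

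The promoters of cilia genes are shown because most of the listed cilia genes moved together with Foxj1. RFX factors, which act with Foxj1 in ciliated cells, bind motifs built on GTTGCC, and forkhead factors bind motifs such as TGTTTAC. Each was searched on both strands in the 250 bases upstream of the start sites in RefSeq (GRCm38.p6), and a gene was counted where any of its listed start sites had a match. GTTGCC was found for 17 of 42 axoneme genes with a promoter sequence (40.5%), against 3195 of 27025 genes in all (11.8%). TGTTTAC was found for 4 of the 42 (9.52%) against 956 of 27025 (3.54%). Of 11 multiciliated cell regulators with a promoter sequence, 4 held GTTGCC (36.4%) and 0 held TGTTTAC. The 3 promoters below, picked among those with a match, run 5′ to 3′ with the matches to either motif in capitals. Sntn encodes sentan of the ciliary tip, Tekt1 a tektin of the microtubule doublets and Enkur a protein of the doublets' inner surface. They lie at chr14:13670626-13670875 (plus strand), chr11:72361883-72362132 (minus) and chr2:21205366-21205615 (minus).
Sntn: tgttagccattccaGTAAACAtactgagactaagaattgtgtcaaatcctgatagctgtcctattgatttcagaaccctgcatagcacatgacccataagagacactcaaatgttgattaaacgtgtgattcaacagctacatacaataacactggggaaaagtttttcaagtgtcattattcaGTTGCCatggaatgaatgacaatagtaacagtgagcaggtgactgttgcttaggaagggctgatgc
Tekt1: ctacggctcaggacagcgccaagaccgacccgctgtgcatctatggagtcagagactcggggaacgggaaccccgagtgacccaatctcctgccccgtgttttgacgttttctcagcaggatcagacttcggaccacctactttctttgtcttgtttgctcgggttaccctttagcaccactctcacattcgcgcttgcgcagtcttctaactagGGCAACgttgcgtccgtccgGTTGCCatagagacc
Enkur: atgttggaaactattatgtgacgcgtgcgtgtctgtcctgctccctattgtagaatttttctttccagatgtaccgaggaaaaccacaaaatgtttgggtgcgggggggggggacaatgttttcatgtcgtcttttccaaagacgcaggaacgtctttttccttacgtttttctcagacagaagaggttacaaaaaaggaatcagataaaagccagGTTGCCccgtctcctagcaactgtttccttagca
Sntn holds GTTGCC with its first base at −66 from the start site and the reverse complement of TGTTTAC at −236. Tekt1 holds GTTGCC at −15 and its reverse complement at −35, and Enkur holds GTTGCC at −34. The window of another Tekt1 start site, at chr11:72361297-72361546, holds neither string of letters. Both Tekt1 windows lie inside the span of the gene, 72344717 to 72362442. The only window listed for Dnah5, at chr15:28203516-28203765 (plus strand), holds neither string, although Dnah5 followed Foxj1. It lies inside the gene, which starts at 28154854, so the bases upstream of that start were not searched. Mlf1, an axoneme gene whose levels overlapped between the sets, holds GTTGCC at −105 and TGTTTAC at −116. A match is a string of letters and not a measured binding site.

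The other 3 markers given with the rule separated the same libraries without overlap. From here on, values of the Foxj1-high libraries follow the order control 2, control 4, Pparg knockout 1, Pparg knockout 4, Tbet knockout 1, Tbet knockout 2 and Tbet knockout 4, and those of the Foxj1-low libraries the order control 1, control 3, Pparg knockout 2, Pparg knockout 3 and Tbet knockout 3. Epcam, the adhesion molecule of simple epithelia (chromosome 17, 87635979 to 87651127), was at 46.7, 24.1, 28.2, 66, 7.29, 42 and 91.1 CPM in the Foxj1-high libraries. In the Foxj1-low libraries it was at 0.833, 0.782, 0.312, 0.478 and 0.126 CPM. The lowest Foxj1-high library, Tbet knockout 1, still lay far above the highest Foxj1-low library.

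Krt8, a keratin of simple epithelia that mesothelium also makes (chromosome 15, 101996711 to 102004342), was at 61.9, 33.9, 48.5, 92.7, 22.4, 68.6 and 108 CPM in the Foxj1-high libraries. In the Foxj1-low libraries it was at 11.2, 9.06, 0.976, 5.3 and 0.503 CPM. Its Foxj1-low values were not uniform: the 3 libraries above 5 CPM were also those with the most Msln, the mesothelial surface protein mesothelin, at 120, 80.3 and 62.6 CPM. The remaining Foxj1-low libraries, Pparg knockout 2 and Tbet knockout 3, had 11.6 and 9.56 CPM of Msln. The part of mesothelium in the Krt8 difference was not tested.

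Cuzd1, which encodes a membrane protein with CUB and zona pellucida-like domains known from pancreas and uterus (chromosome 7, 131308554 to 131322292), was at 43.2, 33.7, 38.4, 89.4, 12, 55.5 and 1209 CPM in the Foxj1-high libraries. In the Foxj1-low libraries it was at 0.0877, 7.58, 0, 0.0368 and 0.21 CPM. Tbet knockout 4 stood far above all others, and control 3 stood above the rest of the Foxj1-low libraries. Of 10 genes listed for pancreas 2 passed the low-count filter, Cuzd1 and Cela1, and Cela1, an elastase, had a fitted log2 difference of −0.45 (SE 0.21). The other 8, pancreatic enzymes, were at or below 0.629 CPM in every male library.

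**Figure D1:**
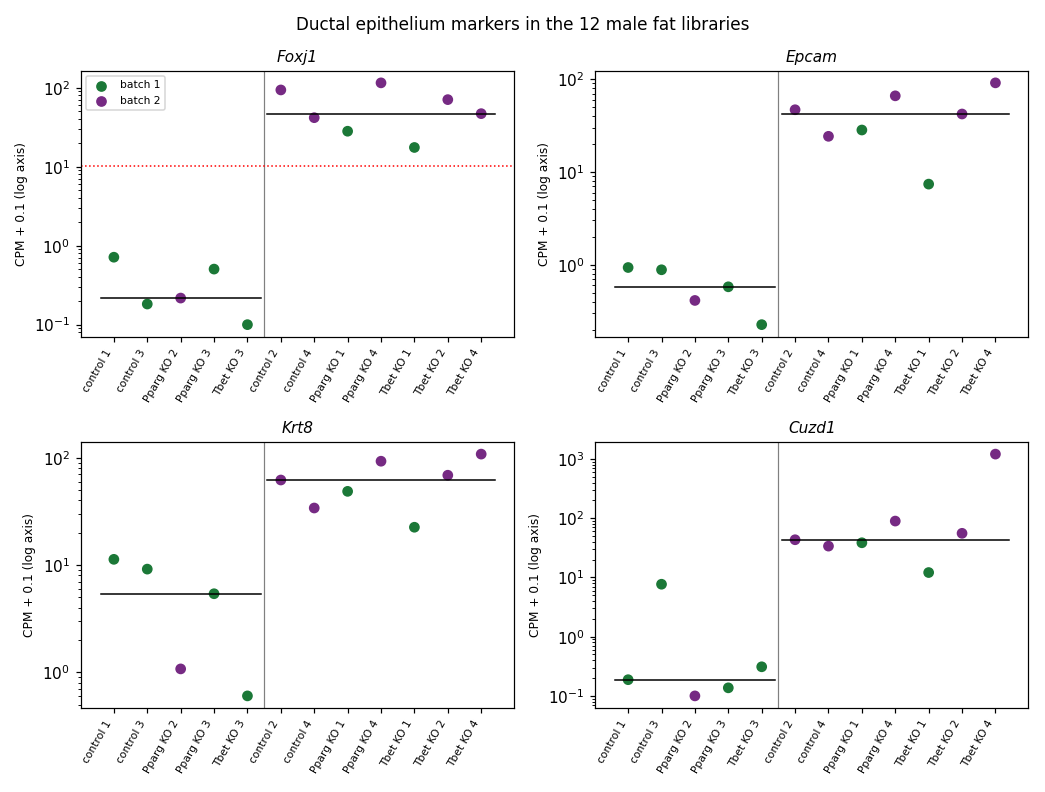
Raw CPM plus 0.1 on a log axis for Foxj1, Epcam, Krt8 and Cuzd1 in each male library, Foxj1-low libraries to the left and Foxj1-high to the right of the vertical line. Horizontal lines are medians, the dotted line is the 10 CPM threshold, colours are batches. In each panel all 7 libraries on the right lie above all 5 on the left, and Cuzd1 reaches 1209 CPM in Tbet knockout 4.

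Across the transcriptome the Foxj1-high libraries differed mostly in 1 direction, by more of certain transcripts. A gene was counted where the CPM ranges of the 7 and the 5 libraries, after TMM scaling, did not overlap and the fitted log2 difference (Foxj1-high less Foxj1-low, batch in the fit) was at least 1 in size. Of 16611 genes, 642 were higher in the Foxj1-high libraries (3.86%) and 1 was lower (0.00602%). Because Foxj1 of these libraries chose the sets, all differences between them are descriptions without a p-value. The fitted log2 difference was 6.93 (SE 0.59) for Foxj1, 5.52 (SE 0.63) for Epcam, 3.24 (SE 0.81) for Krt8 and 4.90 (SE 1.86) for Cuzd1. The median over all genes was −0.03. Summed over the 642 genes, the share of a library's counts was 0.293% to 1.15% in the Foxj1-high and 0.0605% to 0.0916% in the Foxj1-low libraries. In bulk tissue, more cells of a type and more RNA per cell cannot be told apart.

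Genes of epithelial identity made up the clearest list. Of 25 general epithelium genes 22 passed the low-count filter, and all 22 had a positive fitted difference with a median of 3.25. Among them 15 were counted as higher, against 3.86% of all genes. Cdh16, a cadherin of kidney and duct epithelium, was at 52.1, 28.3, 27, 74, 5.43, 47.5 and 39.9 CPM in the Foxj1-high libraries and at most 0.132 CPM in the Foxj1-low ones (log2 difference 8.59, SE 0.72). Elf3, an epithelial transcription factor, ranged from 7.58 to 34.8 CPM with a median of 27 against at most 0.132 CPM (8.20, SE 0.55). Cdh1, E-cadherin, was at 24.5, 11.7, 4.63, 31.2, 0.342, 15.5 and 59.5 CPM against at most 0.247 CPM (6.25, SE 1.11). In Tbet knockout 1 Cdh1 was thus just above the Foxj1-low range, although its Foxj1 was past the threshold. Unlike Krt8, the keratins Krt19 and Krt7 overlapped between the sets: Krt19 ranged from 15.7 to 48.9 CPM against 4.28 to 37.5 CPM, and Krt7 from 2.95 to 20 CPM against 2.07 to 20 CPM.

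The switch genes of multiciliated cells were present at low levels. Of 12 such genes 9 passed the filter and 4 were counted as higher, Foxj1 among them, against 3.86% of all genes. Gmnc, the geminin-family protein that starts the multiciliated programme, ranged from 0.538 to 6.4 CPM with a median of 4.54 CPM in the Foxj1-high libraries and reached at most 0.441 CPM in the others (4.53, SE 1.04). Trp73, the p53-family factor of multiciliated cells, ranged from 1.57 to 8.01 CPM against at most 0.221 CPM (4.29, SE 0.56). Myb, which acts early in this programme and also in blood cells, ranged from 2.89 to 14.6 CPM against at most 0.702 CPM (3.31, SE 0.38). Mcidas, which works with Gmnc while centrioles multiply, did not pass the filter: it had 21 counts over the 7 libraries and 0 counts over the 5. Rfx2 and Rfx3, the RFX factors of ciliated cells, are also expressed elsewhere and overlapped, with fitted differences of 0.28 (SE 0.19) and 0.42 (SE 0.25).

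Genes of the ciliary axoneme, the motor and scaffold of motile cilia, followed Foxj1 in most cases. All 53 listed genes passed the filter, 50 had a positive difference, and the median log2 difference was 2.23. Of the 53, 32 were counted as higher, against 3.86% of all genes. Dnah5, a heavy chain of the outer dynein arm (chromosome 15, 28154854 to 28472045), was at 44, 16.3, 9.53, 53.4, 4.31, 31.2 and 21.4 CPM in the Foxj1-high libraries. In the Foxj1-low libraries it was at 0.0439, 0, 0.117, 0 and 0 CPM (log2 difference 8.23, SE 0.62). Sntn (chromosome 14, 13670876 to 13683148) was at 15.1, 5.69, 4.78, 17.8, 3.47, 11.6 and 6.45 CPM, with 1252 counts over the 7 libraries and 2 counts over the 5. The ratio of its pooled levels was 543, with a 95% counting interval of 150 to 4488. Dnah11, another outer arm heavy chain, ranged from 5.33 to 37.9 CPM against at most 0.175 CPM (7.03, SE 0.70). Rsph4a, a radial spoke head protein, ranged from 1.91 to 44.6 CPM against at most 0.195 CPM (6.90, SE 0.65).

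Some axoneme genes did not separate. Tppp3, a tubulin-binding protein that stromal cells make too, was at 34.5 to 83.2 CPM against 41.5 to 77.7 CPM (0.08, SE 0.19). Others, which also serve the sperm tail, were high in the Foxj1-low library control 1, whose germ cell transcripts are given further on; the part of those cells in these values was not tested. Dnaaf1, a dynein assembly factor, was at 13.6 CPM in control 1 against at most 9.16 CPM in any Foxj1-high library, and Ropn1l, a radial spoke protein, at 23.9 against at most 8.84 CPM. Mlf1 was at 15.4 CPM in control 1, above every Foxj1-high library. Dnaaf1, Ropn1l and Mlf1, chosen after their values were seen, had fitted differences of −0.39 (SE 2.08), −0.80 (SE 0.65) and 0.59 (SE 1.04). Summed over the list, axoneme transcripts ranged from 323 to 1045 CPM in the Foxj1-high and from 99.4 to 225 CPM in the Foxj1-low libraries, with control 1 the highest of the latter.

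**Figure D2:**
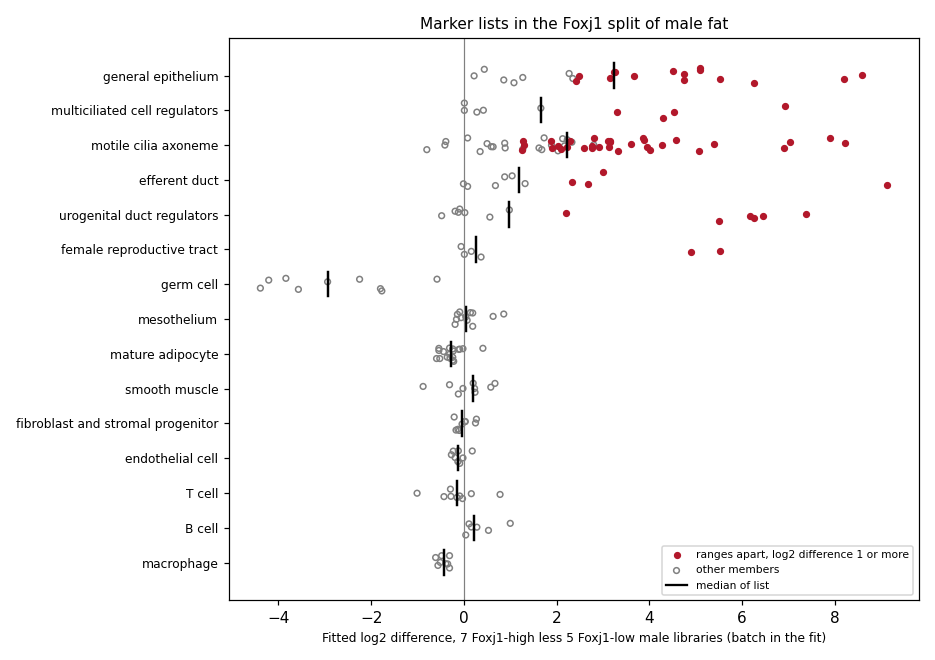
Fitted log2 differences (Foxj1-high less Foxj1-low male libraries, batch in the fit) of the members of 15 marker lists that passed the low-count filter, filled where library ranges were apart with a difference of at least 1. Bars are list medians, 3.25 for general epithelium and 2.23 for axoneme genes. Medians of the stromal, vascular and immune lists run from −0.43 (macrophage, all 8 genes negative) to 0.22 (B cell), and germ cell genes reach −4.39.

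Absorptive genes of the efferent duct were present too. Of 10 listed genes 4 were counted as higher, against 3.86% of all genes, with a list median of 1.18. Slc9a3, the sodium-proton exchanger through which this duct takes up fluid (chromosome 13, 74086255 to 74169442), was at 15.7, 9, 1.07, 21.5, 0.0979, 16.1 and 11.7 CPM. It had 1425 counts over the Foxj1-high libraries and 0 counts over the Foxj1-low libraries, at least 412-fold higher for a floor of 3 counts over the set. Its level in the Foxj1-high libraries of batch 1, Pparg knockout 1 and Tbet knockout 1, lay below that of every Foxj1-high library of batch 2. Lrp2, the endocytic receptor megalin, was at 124, 56.8, 32.6, 149, 9.05, 117 and 137 CPM against 0.797 to 6.77 CPM (3.01, SE 0.76). Cftr, the chloride channel, ranged from 2.35 to 16.8 CPM against at most 1.97 CPM (2.34, SE 1.06). Amn, the partner of cubilin in protein uptake, ranged from 0.245 to 1.81 CPM against at most 0.175 CPM (2.67, SE 0.59). Esr1, the oestrogen receptor on which efferent duct absorption depends, also marks stroma and overlapped, at 6.61 to 54.3 CPM against 3.73 to 13.7 CPM (1.04, SE 0.20). Aqp1 is an endothelial water channel as well and showed no separation, at 490 to 1066 CPM against 465 to 1208 CPM.

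Transcription factors of the urogenital ducts were found with them. Of 17 listed genes 13 passed the filter and 6 were counted as higher, against 3.86% of all genes, with a list median of 0.98. Pax8, a paired-box factor of kidney and genital ducts (chromosome 2, 24420551 to 24475599), was at 21.8, 10.7, 12.1, 26.8, 5.97, 18.3 and 59.5 CPM against 0.0439, 0.288, 0, 0.0736 and 0.252 CPM (6.45, SE 0.76). Pax2 had 558 counts over the 7 libraries and 2 counts over the 5, a ratio of 242 with a 95% counting interval of 66.7 to 2003. Srd5a2, the steroid 5-alpha-reductase that makes dihydrotestosterone, had 1207 counts against 2 counts, a ratio of 523 (145 to 4327). Lhx1, a LIM-homeodomain factor of the nephric duct, ranged from 0.497 to 6.27 CPM against at most 0.0877 CPM. Hoxa10 and Wt1, which stroma and mesothelium express, overlapped, with fitted differences of −0.48 (SE 1.21) and −0.19 (SE 0.30).

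Outside the lists, the genes with the largest differences had varied roles. Pklr, the liver-type pyruvate kinase, was at 24.1, 14.5, 18, 35.4, 5.38, 23.5 and 23.6 CPM, and 2812 counts in the Foxj1-high stood against 0 counts in the Foxj1-low libraries, at least 813-fold higher for a floor of 3 counts. Dao, the D-amino acid oxidase, ranged from 18.7 to 72.1 CPM against at most 0.126 CPM (9.52, SE 0.53). Mmp7, the epithelial protease matrilysin, ranged from 12 to 100 CPM against at most 0.0877 CPM (9.86, SE 0.76). Slc7a9, the light chain of a cystine transporter, had 2247 counts against 2, a ratio of 974 (269 to 8051). The sulfotransferases Sult1d1 and Sult1c2, the urate oxidase gene Uox and the water channel gene Aqp4 each had 0 counts over the 5 Foxj1-low libraries and were at least 200-, 220-, 191- and 151-fold higher. Kif12, a kinesin, Nme9, a thioredoxin-domain protein, Tmem212 and Ccdc121 also had 0 counts there, and their lower bounds were 217-, 226-, 390- and 144-fold. Sectm1b had 1 count there against 1371 in the Foxj1-high libraries. Ccdc153, a gene of ciliated cells, ranged from 18.8 to 62.7 CPM against at most 0.219 CPM (8.57, SE 0.55), and Dcdc2a, a doublecortin-domain gene, from 20.8 to 219 CPM against at most 0.368 CPM (8.56, SE 0.61).

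The Foxj1-high libraries were not alike in the mixture they carried. Relative to Foxj1 of the same library, the ratio of Sntn lay between 0.137 and 0.2 and that of Dnah5 between 0.248 and 0.47. Cftr lay between 0.0969 and 0.146, and Dao between 0.595 and 1.16. Slc9a3 varied far more, from 0.00563 in Tbet knockout 1 and 0.0382 in Pparg knockout 1 to between 0.168 and 0.25 in the 5 libraries of batch 2. Srd5a2 was also lowest in Tbet knockout 1, at 0.0169, against 0.129 to 0.318 elsewhere. Lrp2 was at 0.521 in Tbet knockout 1 and between 1.16 and 2.92 in the others. Tbet knockout 4 had the highest ratios of Epcam (1.95), Pax8 (1.27), Lrp2 (2.92) and Cuzd1 (25.8).

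**Figure D3:**
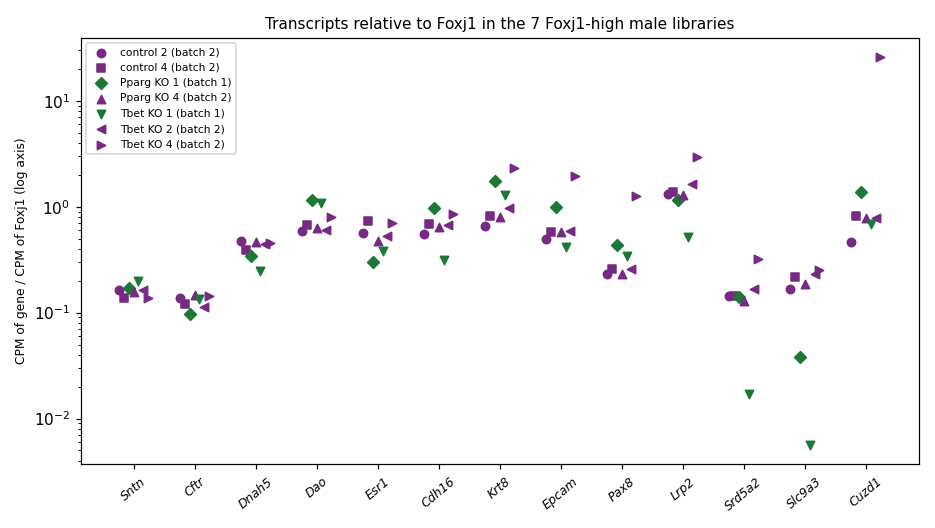
Raw CPM of 13 genes divided by that of Foxj1 in the same library, on a log axis, for each of the 7 Foxj1-high male libraries; symbols are libraries and colours batches. Sntn, Cftr and Dnah5 spread little, Slc9a3 reaches down to 0.00563 in Tbet knockout 1, and Cuzd1 reaches 25.8 in Tbet knockout 4.

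Tbet knockout 4 carried secretory genes of the epididymal duct that the other Foxj1-high libraries had at low levels or not at all. Among 41 listed epididymal genes, 20 reached 1 CPM in this library, against 1 to 4 in the other Foxj1-high and 0 to 3 in the Foxj1-low libraries. Crisp1, a sperm-binding secretory protein (chromosome 17, 40293758 to 40319207), was at 3188 CPM, Spink8, a protease inhibitor, at 1041 CPM and Adam7, a membrane protein of the epididymal epithelium, at 853 CPM. Outside Tbet knockout 4, Adam7 was at 28.2 CPM in Pparg knockout 4 and 8.86 CPM in Tbet knockout 1, and at most 0.509 CPM in the other Foxj1-high libraries. Markers of other cells of that duct were present in Tbet knockout 4 as well: Foxi1, the factor of proton-secreting clear cells, at 6.05 CPM against at most 0.165 CPM in any other male library, and Krt5, a basal cell keratin, at 11.9 against at most 0.196 CPM. Xist, the RNA of the inactive X chromosome, was at 24.7 CPM in this male library, against at most 3.23 CPM in the other males and at least 574 CPM in females. Genes of the initial segment and caput such as Lcn8, Lcn9 and Gpx5 were at or near 0 in all male libraries, as were the seminal vesicle and prostate genes Svs2, Svs4 and Pbsn. The genes of this paragraph other than Adam7 were chosen after their values were seen. Of the 41 epididymal genes 4 passed the filter. Of the 642 genes counted as higher, 408 were highest in Pparg knockout 4 and 132 in Tbet knockout 4, and in 19 genes Tbet knockout 4 held over 50% of the summed CPM of the 7.

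The Foxj1-low libraries were not free of reproductive tract transcripts. Control 3 had 25.6 CPM of Crisp1, 7.74 of Spink8, 2.59 of Adam7 and 7.58 of Cuzd1, with 0.0824 CPM of Foxj1 and 0.782 CPM of Epcam. Its summed epididymal list, 40.6 CPM, was above that of every Foxj1-high library except Tbet knockout 4, where it was 5646 CPM. Control 1 carried germ cell transcripts: Prm2, a protamine that packs sperm DNA, was at 138 CPM, Prm1 at 104 CPM and Tnp2, a transition protein of spermatids, at 150 CPM. Pparg knockout 3 had 33.3 CPM of Prm2 and Tbet knockout 4 had 38 CPM, and the remaining 9 male libraries had 0 to 10.2 CPM. Germ cell genes thus did not follow Foxj1. Sycp3, a listed meiosis gene, was at 28.2 to 227 CPM in every male library, so the list was also summed without it, a choice made after its values were seen: it came to 564 CPM in control 1, 107 in Tbet knockout 4, 85.2 in Pparg knockout 3 and 0.546 to 25.8 in the others. Leydig cell transcripts were low, but Cyp17a1, the androgen-synthesis enzyme, was at 36.9 CPM in Tbet knockout 4 and 4.3 CPM in control 1 against at most 1.73 CPM elsewhere. In the Foxj1 split of males without the 3 libraries control 1, Pparg knockout 3 and Tbet knockout 4, an alternative added after these values were seen, 966 genes were counted in either direction, against 643 with all libraries. Ranges separate more easily by chance with fewer libraries, so the counts are not comparable.

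**Figure D4:**
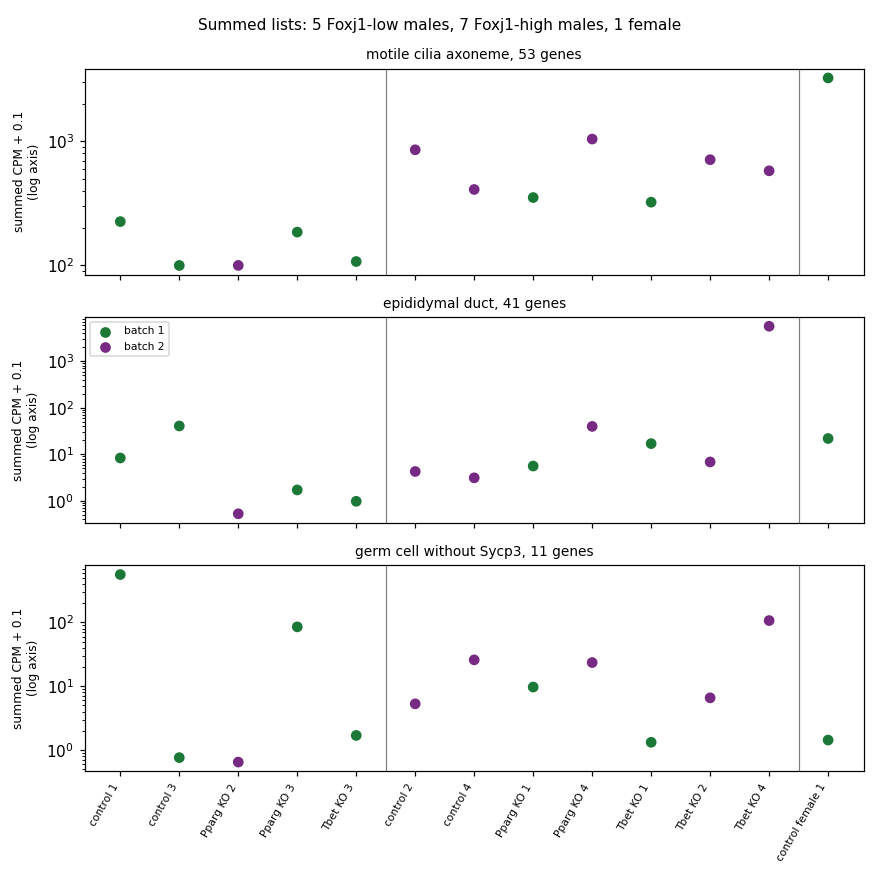
Summed raw CPM plus 0.1, on a log axis, of axoneme, epididymal duct and germ cell genes (without Sycp3) in the 5 Foxj1-low males, the 7 Foxj1-high males and control female 1. Axoneme sums separate the male sets (99.4 to 225 against 323 to 1045 CPM), epididymal sums peak in Tbet knockout 4 (5646 CPM) and germ cell sums in control 1 (564 CPM).

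Very little was lower in the Foxj1-high libraries. Creb3l3, a transcription factor of triglyceride metabolism chosen here because it was the only gene counted as lower, was at 0.317, 0.484, 0.344, 0.323, 0.44, 0.509 and 0.319 CPM against 0.79, 0.865, 1.05, 0.699 and 0.503 CPM (−1.20, SE 0.32). Its raw ranges met, at 0.509 and 0.503 CPM, and only its scaled ranges were apart. Without the size condition, library ranges were apart for 719 genes in the higher (4.33%) and 54 in the lower direction (0.325%). Among the latter were fat genes with small differences. Ranges were compared without adjustment for batch, and the Foxj1-low set held 1 library of batch 2. Tmem120b, which adipocyte differentiation needs, differed by −0.72 (SE 0.19), Mrap, a melanocortin receptor partner, by −0.58 (SE 0.21), and the membrane protein gene Stom by −0.50 (SE 0.16). Hadhb, of mitochondrial fatty acid oxidation, differed by −0.39 (SE 0.15), and Cd36, the fatty acid transporter, by −0.38 (SE 0.15). Cd36 stood at 3796 to 5274 CPM against 4790 to 6205 CPM, so here too the raw ranges met. Tmem120b, Mrap, Stom and Hadhb were also lower in batch 2 males, by log2 fold changes of −0.77, −0.74, −0.64 and −0.60. Their edgeR adjusted p was at most 0.0208. For Cd36 the log2 fold change was −0.28 (edgeR adjusted p = 0.138). The part of batch in these separate ranges was not tested. Of 18 mature adipocyte genes 17 were negative with a median of −0.27, and none was counted. The lipid droplet gene Cidec, at −0.59 (SE 0.23), and the triglyceride synthesis gene Dgat2, at −0.54 (SE 0.18), led them.

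Other cell types of fat showed no counted member, where 3.86% of all genes were counted as higher and 0.00602% as lower. In lists this short, no counted member is near that share. The medians were −0.43 for 8 macrophage genes, all of them negative, −0.15 for 9 T cell genes, 0.22 for 6 B cell genes, −0.12 for 8 endothelial genes and −0.04 for 9 fibroblast genes. Smooth muscle genes had a median of 0.20 and mesothelium genes of 0.06, and none of the 12 mesothelium genes was counted. Foxp3, the factor of the cells in which Cre is active, ranged from 0.253 to 1.23 CPM against 0.371 to 1.4 CPM (−1.01, SE 0.45). Sox9, listed with Sertoli cells and also made by duct epithelium, was the counted gene of that list, at 11.2 to 41.7 CPM against 2.64 to 7.77 CPM (1.85, SE 0.23). Of 12 female reproductive tract genes 6 passed the filter and 2 were counted as higher, Cuzd1 among them, with a list median of 0.27. The list summed to 35.9 to 1648 CPM in the Foxj1-high and 13.6 to 35.5 CPM in the Foxj1-low libraries. Its member Ovgp1, the oviduct glycoprotein, overlapped, at 2.84 to 4.24 CPM against 1.73 to 3.23 CPM (0.16, SE 0.22).

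Genotype labels were compared in males with edgeR's quasi-likelihood test on all 24 libraries, and no epithelial gene was called. In Pparg knockout against control males 0 genes of 17824 passed an adjusted p of 0.05 in either direction (0%), where 454 had an unadjusted p under 0.05 and DESeq2 called 1. In Tbet knockout against control males 0 genes were higher (0%) and 1 was lower (0.00561%), Ide, the insulin-degrading enzyme gene, with a log2 fold change of −0.89 (SE 0.14, edgeR adjusted p = 0.0470). That call was lost in 10 of the 12 fits that left out 1 male library, all but those without Pparg knockout 2 or Pparg knockout 3, while its log2 fold change in those 10 fits stayed between −0.82 and −0.95. The unadjusted p was under 0.05 for 780 genes. DESeq2 called 21 genes, none of them a member of the marker lists, and 9 without Tbet knockout 4, a fit chosen after seeing the data. For Foxj1 the log2 fold change was 0.63 (SE 1.95) in Pparg knockouts and 0.39 (SE 1.89) in Tbet knockouts, for Epcam 0.80 (SE 1.74) and 0.95 (SE 1.65), and for Cuzd1 1.5 (SE 1.42) and 3.01 (SE 1.52), each with an edgeR adjusted p of 1. Each group held libraries of each kind, and the standard errors of these 3 genes exceeded 1, against 0.14 for Ide. The 2 comparisons share the control libraries.

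The labelled batches differed widely, and absorptive duct genes differed with them. Foxj1-high libraries were 5 of 6 in batch 2 and 2 of 6 in batch 1, and Foxj1 class was not in this model. Slc9a3 and Srd5a2 had 0 and 2 counts in the Foxj1-low set, and with Lrp2 were named for the split of these males. For such genes batch and Foxj1 class cannot be told apart here. Of 16914 genes, 4450 were higher in batch 2 (26.3%) and 4611 lower (27.3%) in males, with genotype in the model. Of 10 efferent duct genes 7 were higher and 1 lower, of 13 urogenital duct genes 5 were higher and 1 lower, and of 53 axoneme genes 16 were higher and 1 lower. The median log2 fold change was 1.64 for the axoneme list and 0.04 for all genes. Slc9a3 was higher in batch 2 by a log2 fold change of 6.30 (SE 1.52, edgeR adjusted p = 0.00574), Lrp2 by 3.35 (SE 0.95, edgeR adjusted p = 0.0136) and Srd5a2 by 4.81 (SE 1.70, edgeR adjusted p = 0.0358). Foxj1 itself differed by 3.34 (SE 1.5, edgeR adjusted p = 0.0851) and Epcam by 3.33 (SE 1.36, edgeR adjusted p = 0.0624), which did not pass the threshold. Without Pparg knockout 1 the values were 4.85 for Foxj1 (edgeR adjusted p = 0.0337) and 4.81 for Epcam (edgeR adjusted p = 0.00826), and without Pparg knockout 2 they were 3.83 (edgeR adjusted p = 0.0262) and 3.90 (edgeR adjusted p = 0.0118). Pparg knockout 1 is Foxj1-high in batch 1, and Pparg knockout 2 is the only Foxj1-low library of batch 2. Leaving out either one widens the batch difference by that choice, so these values add no support. No other fit that left out 1 male library passed the threshold for Foxj1 or Epcam. In the Foxj1 split of males within batch 1 alone, with 2 Foxj1-high and 4 Foxj1-low libraries, 727 genes were counted in either direction. Ranges of so few libraries separate more easily by chance, so this count is not comparable with that of all males. Within batch 2 alone the only Foxj1-low library was Pparg knockout 2, so its range was 1 value and no count is given.

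The choice of male libraries did not use the values of the females, but it did use Foxj1 of the males. Apart from the markers given with the rule, the genes below were named for their differences in the Foxj1 split of the same males. Their p-values therefore do not give support independent of that split. Slc9a3 had 0 counts in the Foxj1-low males, so its difference rests on the Foxj1-high libraries. Of 12 female libraries 11 had at most 1.08 CPM of Foxj1, and control female 1 had 455 CPM. Across all groups, males had more Cuzd1 than females (log2 fold change 10.82, SE 1.62, edgeR adjusted p = 3.72e-05) and more Slc9a3 (8.83, SE 1.37, edgeR adjusted p = 0.000102), Cdh16 (7.69, SE 1.61, edgeR adjusted p = 0.000865), Srd5a2 (8.12, SE 1.64, edgeR adjusted p = 0.00146) and Pax8 (4.64, SE 1.64, edgeR adjusted p = 0.0286). These calls stand among 3898 genes higher (21.9%) and 3729 lower (20.9%) in males of 17824 tested. Foxj1 (3.32, SE 1.51, edgeR adjusted p = 0.0829), Epcam (1.63, SE 1.20, edgeR adjusted p = 0.287) and Dnah5 (0.76, SE 1.64, edgeR adjusted p = 0.739) did not pass the threshold. Without the libraries above 10 CPM of Foxj1, the difference of Cuzd1 was 3.58 and that of Dnah5 was −7.43. The males kept there were chosen by Foxj1, which these genes follow, so the values are a description with no test. Without Pparg knockout male 1, Pax8 differed by 3.85 (edgeR adjusted p = 0.0843). Cuzd1 was at most 0.115 CPM and Slc9a3 at most 0.106 CPM in every female library.

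Control female 1 showed a ciliated epithelium with another composition. It had 179 CPM of Epcam, 75.8 of Pax8, 177 of Dnah5 and 72.5 of Sntn, and its axoneme list summed to 3258 CPM. Its Ovgp1 stood at 5600 CPM, where no other library of either sex exceeded 5.25 CPM, and its Wnt7a, a signal of female tract epithelium, at 13.9 CPM against at most 0.449 CPM in other females. Some duct genes of the Foxj1-high males were absent from it or low in it. Slc9a3, Srd5a2, Lhx1, Dao and Kif12 were at 0 CPM, Cuzd1 at 0.0702 CPM and Cdh16 at 3.37 CPM. Others, such as Pax8, were present. Of 10 efferent duct genes 8 reached 1 CPM in it, against 7 to 10 in the Foxj1-high males and 6 to 8 in the other females. Of 17 urogenital duct genes 12 did, against 9 to 13 in the Foxj1-high males and 8 to 11 in the other females. These counts thus set it little or not at all apart from the other females. Of the 642 genes counted as higher in Foxj1-high males, 438 (68.2%) were also more than 2-fold above all other female libraries in control female 1, against 1277 of the 16611 genes (7.69%). The source name of this library disagrees with its title on number and batch, and its title was followed.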

How the data were processed

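RNA of whole adipose tissue was sequenced in 24 libraries. Per the submitters' processing notes the authors used featureCounts, limma and the genome build GRCm38 (mm10). The strand setting is not given in the sources used here, nor is an aligner, annotation or version, and reads of overlapping or antisense genes may therefore be shared. The deposited counts are whole reads for each of 27179 genes, from 8345575 to 31022845 per library; 1029 genes without a symbol hold 0.433% of them. The authors' deposited log2 FPKM values cover 15764 genes, have nearly equal quartiles in all libraries (spread at most 0.0247, against 1.32 for log2 CPM) and served 1 alternative. No source used here states their normalization.

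Counts were scaled by TMM (factors 0.903 to 1.12 in males) and fitted with edgeR 4.0.16 in R 4.3.3 (robust quasi-likelihood F test, Benjamini-Hochberg adjustment, threshold 0.05, filterByExpr): 6 groups and batch over 24 libraries, or class and batch over the 12 males for the Foxj1 split. Levels are raw CPM. Alternatives used DESeq2 1.42.0 and limma 3.58.1. Genes with 0 counts in the Foxj1-low set have bounds for a floor of 3 counts over the set, and those with 1 to 3 counts a ratio with a 95% exact interval (Clopper-Pearson); both cover counting error only. The fits were tested on simulated data. Males of the same replicate number in different genotypes were compared in 12 pairs, after means of group and batch were taken off. Their deviations correlated between −0.28 and 0.44. Deviations within a group and batch mirror each other, so these pairs are not independent. The 12 pairs of libraries compared for duplicates differed beyond sampling noise (chi-square per degree of freedom at least 18.8). Coordinates and promoters come from GRCm38.p6; 354 of 354 genes matched.

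Named were the 4 markers, up to 4 tested members per list with the largest fitted differences, outside the lists up to 15 higher and 10 lower genes with separate ranges, and up to 5 called genes per direction in label comparisons. Every other gene named was chosen after its values were seen: Tekt1, Enkur, Msln, Krt7, Mcidas, Rfx2, Rfx3, Tppp3, Dnaaf1, Ropn1l, Mlf1, Amn, Esr1, Aqp1, Lhx1, Hoxa10, Wt1, Foxp3, Foxi1, Krt5, Xist, Crisp1, Spink8, Lcn8, Lcn9, Gpx5, Svs2, Svs4, Pbsn, Prm2, Sycp3, Wnt7a, Muc16 and Creb3l3. The members and the lists were chosen with earlier results of these data known. A gene that the naming rule selects is not reported here.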

Additional observations from a re-analysis of the deposited data

Results flagged for a closer look

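Of 56 groups of values, 6 held a library far from its nearest neighbour by Dixon's ratio on log2(CPM + 0.1), and chance alone flags about 1 in 20. Epididymal duct genes summed to 5646 CPM in Tbet knockout male 4, against 3.03 to 39.7 CPM in the other 6 Foxj1-high males. The same list summed to 21.8 CPM in control female 1, where the other control females had 0.676 to 1.1 CPM. Cuzd1 was at 7.58 CPM in control male 3, against 0 to 0.21 CPM in the other Foxj1-low males. Cuzd1 was also at 0.115 CPM in Pparg knockout female 2 and at 0.0773 CPM in Tbet knockout female 3, where the other females of the group had 0 CPM. With the others at 0, the ratio is 1 for any value above 0, so these flags were fixed in advance. Epcam was at 2.52 CPM in Tbet knockout female 2, against 0.541 to 0.634 CPM in the others of its group.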

How the results depend on the processing

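In the Foxj1 split of males, 643 genes were counted in either direction, and 605 to 782 when 1 library was left out. The count was 501 at a threshold of 20 CPM, 491 with limma on log2 FPKM, 2575 in batch 2 alone, which has 1 Foxj1-low library, and 966 without the 3 libraries with germ cell or epididymal transcripts; the last was chosen after seeing the data, and the causes were not tested. With the replicate block the count was 641. Across genotypes, libraries of the same replicate number correlated between −0.28 and 0.44. Whether libraries of one group that share a number in the title are paired was not tested. For Pparg KO against control, males, the count of 0 became 1 with DESeq2, 1 with limma on log2 FPKM and 3 in batch 2 alone, and was 0 to 1 when 1 library was left out. For Tbet KO against control, males, the count of 1 became 21 with DESeq2 and 6 in batch 1 alone, among them Muc16, listed for mesothelium and female tract. It was 9 with DESeq2 without Tbet knockout male 4, and 0 to 1 with edgeR when 1 library was left out. It became 0 with no filter on low counts, 0 with the replicate block, 0 in batch 2 alone, 0 without the male libraries above 10 CPM of Foxj1, 0 with the Foxj1 class as a covariate, 0 in the 12 males alone and 0 without the 3 libraries. The log2 fold change of Ide stayed between −0.73 and −1.02 in all these edgeR fits, so the adjusted p moved and not the direction. For Batch 2 against batch 1, males, 9061 genes were called, 8109 to 9665 when 1 library was left out and 2003 without the male libraries above 10 CPM of Foxj1, a fit with 1 library in batch 2. There, Batch 2 against batch 1, males: Krt8 was −2.37. For Males against females, 6981 to 7790 genes were called when 1 library was left out, against 7627. Without the libraries above 10 CPM of Foxj1, Males against females: Krt8 was −2.35 and Males against females: Dnah5 was −7.43. In both fits the males kept were chosen by Foxj1, which these genes follow, so their signs follow from that choice and carry no test. Males against females: Foxj1 passed the threshold with the replicate block (3.79, edgeR adjusted p = 0.044), with DESeq2 (3.18, adjusted p = 0.0148) and with the batch of control female 1 from its source name (4.38, edgeR adjusted p = 0.0168). Genes under about 1 CPM in every library are limited by depth.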

Other observations

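Counting the genes that exceeded 5 times the highest level of all other males plus 0.5 CPM gave 161 genes in Tbet knockout 4, 17 of them from the epididymal list. It gave 36 genes in control 1, 3 of them from the germ cell list and 1 from the epididymal list, and 16 genes in control 4, none from either list. Each of the other 9 male libraries had 0 or 1 such gene.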
